A study of Homo sapiens with 9 samples.

Results

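On a human lncRNA and mRNA array (Arraystar, v.4.0), 4 probes report mRNAs of the machinery of protein synthesis: RPLP1 and RPL10 of the large ribosomal subunit, RPS18 of the small subunit, and EIF3D of the initiation factor eIF3. They were taken by the RefSeq accession in the probe annotation (NM_001003, NM_006013, NM_022551 and NM_003753), and they make up 4 of 60924 lncRNA and mRNA probes, of which 20 carry such an accession. Each of the 4 probes has 10 spots per array. The mRNAs were measured in 3 human cell lines with 3 one-color Cy3 arrays each, 9 arrays in all. IOSE80 is an immortalized ovarian surface epithelium line of normal origin, SKOV3 is an ovarian adenocarcinoma line, and SKOV3-DDP is a variant of SKOV3 resistant to cisplatin (DDP), a platinum drug that crosslinks DNA. All 3 lines were grown in the same serum-supplemented medium, and no drug treatment is given for any array. Each line stands for 1 cell population, and nothing in the labels says that the 3 arrays of a line came from separate cultures, so that P values measure only the spread between these arrays, which may be technical.

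Ribosomes translate mRNA into protein, the small subunit reading the codons and the large subunit joining amino acids. The initiation factor eIF3 binds the small subunit and helps bring it to the start of an mRNA. In growing cells, ribosomal protein mRNAs are among the most abundant mRNAs, and their translation is controlled together through a run of pyrimidines at the very start of the transcript, which begins with a C.

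The starts of the 4 transcripts are shown because this feature is shared by all of them and was not used to choose them. Each line gives 10 bases before and 20 bases from the annotated start in the transcribed direction, from RefSeq on GRCh38.p14, with the pyrimidine run in capitals.
RPLP1: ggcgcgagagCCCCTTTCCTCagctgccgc
RPL10: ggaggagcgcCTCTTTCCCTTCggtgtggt
RPS18: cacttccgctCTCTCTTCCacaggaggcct
EIF3D: cgcatgtttcCTCTTTTCCTggtttctcaa

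The windows lie at chr15:69452808-69452837 (plus strand) for RPLP1, chrX:154398367-154398396 (plus) for RPL10, chr6:33272065-33272094 (plus) for RPS18, and chr22:36529147-36529176 (minus) for EIF3D. The runs are 11, 12, 9 and 10 bases long in this order. RPL10 has 3 annotated starts, and 1 of them carries the run. A start with a C followed by at least 4 further pyrimidines was searched on the transcribed strand only. It was found at 1429 of 35116 annotated starts (4.07%), and in 49 of 71 ribosomal protein genes in the table (69.0%). A gene was counted if any of its starts had the run, so that the first share is per start and the second per gene. All 4 genes have such a start. The arrays were designed on another build, hg19, and the probe sequences themselves were not used here, so that which copies of these genes a probe can bind was not checked. Many processed copies of ribosomal protein genes exist in the human genome.

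Values are background-corrected intensities, and levels are their log2 after subtraction of the 75th percentile of the array, for which the 15226 probes detected on all 9 arrays were used (detected meaning that the scanner software marked them as well above background). The 75th percentile of the intensity was 163 to 192 on the IOSE80 arrays, 159 to 183 on the SKOV3 arrays, and 48.2 to 54.3 on the SKOV3-DDP arrays. Detected probes made up 39.2% to 42.6%, 40.1% to 41.2%, and 33.0% to 38.5% of all probes on them. With this scaling, the median of all 28591 probes tested was 0.08 (log2) higher in SKOV3 than in IOSE80, and in SKOV3-DDP it was 1.24 above IOSE80 and 1.27 above SKOV3. The SKOV3-DDP arrays also stood apart in the control probes named by species. Of 8 such probes named for mouse or rat GAPDH and PGK1, 5 were brighter on every SKOV3-DDP array than on every other array, and 5 were brighter on every SKOV3 array than on every IOSE80 array. The probe Mouse-GAPDH_5 had an unscaled log2 intensity of 4.46 ± 0.24 (SD, n = 3) in IOSE80 and 4.89 ± 0.12 in SKOV3, with 15.72 ± 0.35 in SKOV3-DDP, and Rat-PGK1_3 had 4.75 ± 1.19, 2.92 ± 0.07 and 14.65 ± 0.21. Among the 5, Rat-GAPDH_5 rose less, with means of 13.46, 13.22 and 14.42. The rodent-named probes outside the 5 had means of 8.18, 9.66 and 8.09 (Mouse-PGK1_5), 8.55, 10.13 and 8.19 (Rat-PGK1_5), and 4.88, 5.06 and 4.80 (Rat-GAPDH_3). Of 4 human-named probes, 3 were dimmer on every SKOV3-DDP array than on every other array. In the same order of lines, the arrays ranged from 16.17 to 16.26, 17.29 to 17.38 and 12.72 to 12.96 for Human-PGK1_3, from 14.96 to 15.07, 14.83 to 14.92 and 12.27 to 12.99 for Human-GAPDH_5, and from 9.44 to 9.58, 10.86 to 11.52 and 6.56 to 6.98 for Human-PGK1_5. The other human-named probe, Human-GAPDH_3, had means of 16.43, 16.67 and 16.56. Whether the RNA labelled SKOV3-DDP was human SKOV3 RNA alone was not tested, nor was the part of these signals in any SKOV3-DDP value below. None of 13 epithelial, ovarian and mesenchymal marker genes had a named probe, so that the identity of the lines could not be checked. The 3 IOSE80 arrays and 2 SKOV3 arrays shared scan 1, and the third SKOV3 array shared scan 2 with the 3 SKOV3-DDP arrays, so that IOSE80 and SKOV3-DDP shared no scan.

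RPLP1 encodes an acidic protein of the stalk of the large subunit, which recruits the elongation factors. Its intensity was 163165, 166484 and 167753 on the 3 IOSE80 arrays, 163764, 155952 and 170677 on the SKOV3 arrays, and 134527, 131477 and 138884 on the SKOV3-DDP arrays. The SKOV3-DDP arrays were thus lowest before scaling, with no overlap, and IOSE80 and SKOV3 overlapped. The probe was among the brightest of every array, with 10 to 14 probes brighter in IOSE80, 11 in SKOV3, and 5 to 6 in the SKOV3-DDP line. After scaling, the level was 5.07 ± 0.11 (SD, n = 3) in IOSE80 and 5.11 ± 0.0071 in SKOV3, with 7.33 ± 0.11 in SKOV3-DDP.

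RPL10 encodes a protein that joins the large subunit late in its assembly, close to the site of peptide bond formation. Its intensity was 217, 266 and 214 in IOSE80, 103, 99.3 and 99.2 in SKOV3, and 4.81, 5.18 and 4.32 in SKOV3-DDP. The probe was far dimmer than that of RPLP1, with 13627 to 13979 probes brighter in IOSE80 and 17472 to 18358 in SKOV3. Whether so dim a probe reports the abundance of the RPL10 mRNA was not tested. All 10 spots were well above background on each of the 6 IOSE80 and SKOV3 arrays, and none was on any SKOV3-DDP array. The lowest intensity well above background on the SKOV3-DDP arrays was 18.1 to 23.4, and 46, 11 and 33 of the 60 negative control probes were brighter than RPL10 there, against 0 on the other arrays. RPL10 therefore has a level in IOSE80 (-4.42 ± 0.06) and in SKOV3 (-5.55 ± 0.08) and only an upper bound in SKOV3-DDP, where the measured mean was -7.47 ± 0.19 (n = 3 each). With RPL10 set to the dimmest detected signal of each SKOV3-DDP array, the mean bound was -5.37, above the SKOV3 level.

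**Figure D1:**
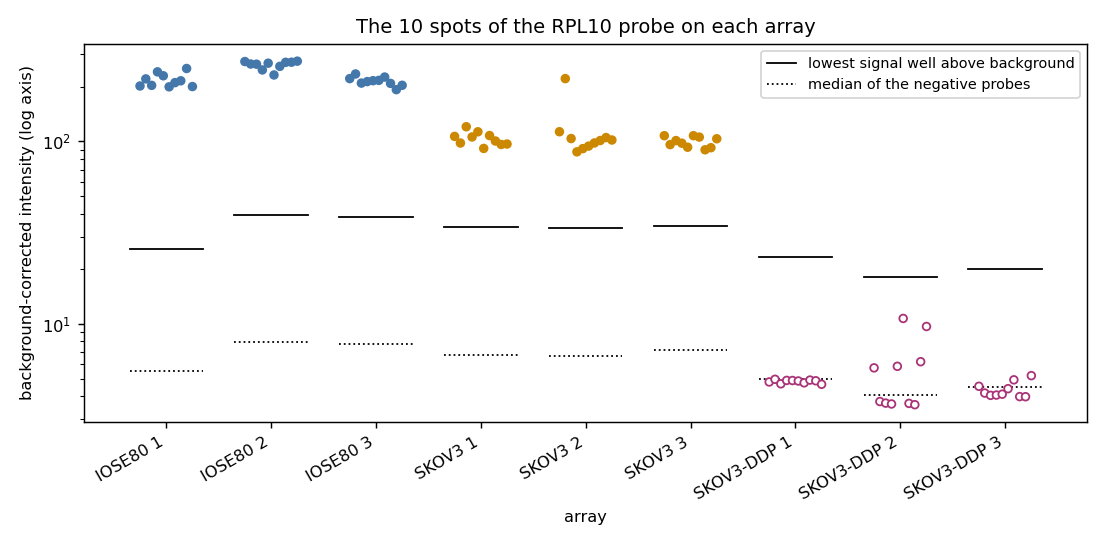
Background-corrected intensity (vertical log axis) of each of the 10 spots of the RPL10 probe on each of the 9 arrays (horizontal axis). Filled points were well above background and open points were not. Solid bars mark the lowest intensity well above background on the array and dotted bars the median of its negative control probes. The IOSE80 spots lie above the SKOV3 spots except for 1 SKOV3 spot at 221, and the SKOV3-DDP spots lie at 3.59 to 10.7, under the solid bars.

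RPS18 encodes a protein of the head of the small subunit. Its intensity was 173417, 177873 and 177341 in IOSE80, 167137, 158437 and 171459 in SKOV3, and 65176, 42484 and 58382 in SKOV3-DDP. The intensities of all 3 SKOV3-DDP arrays lay below those of the other 6 arrays, and the probe went from 3 to 6 brighter probes in IOSE80 and 7 to 10 in SKOV3 to 56 to 140 in SKOV3-DDP. The scaled level was 5.15 ± 0.11 in IOSE80 and 5.13 ± 0.018 in SKOV3, with 6.02 ± 0.40 in SKOV3-DDP (n = 3 each).

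EIF3D encodes the subunit of eIF3 that can itself bind the cap of certain mRNAs. Its intensity was 98738, 103697 and 100204 in IOSE80, 88981, 78540 and 73116 in SKOV3, and 3842, 2072 and 3219 in SKOV3-DDP. The 3 lines did not overlap, with SKOV3 a little below IOSE80 and SKOV3-DDP far below both. The number of brighter probes was 125 to 132 in IOSE80, 184 to 263 in SKOV3, and 1380 to 2315 in SKOV3-DDP. The scaled level was 4.35 ± 0.08, 4.08 ± 0.18 and 1.81 ± 0.54 (n = 3 each), so that EIF3D had the widest spread of the 4 genes among the SKOV3-DDP arrays. The SD over the spots of 1 probe on 1 array ranged from 0.011 to 0.60 (log2) over the 4 genes, with medians of 0.031 for RPLP1, 0.022 for RPS18, 0.041 for EIF3D and 0.095 for RPL10. No spot of the 4 probes was saturated, although the highest intensity on an array was 196048 to 228631, not far above those of RPLP1 and RPS18. Whether the response is linear at this brightness was not tested.

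**Figure D2:**
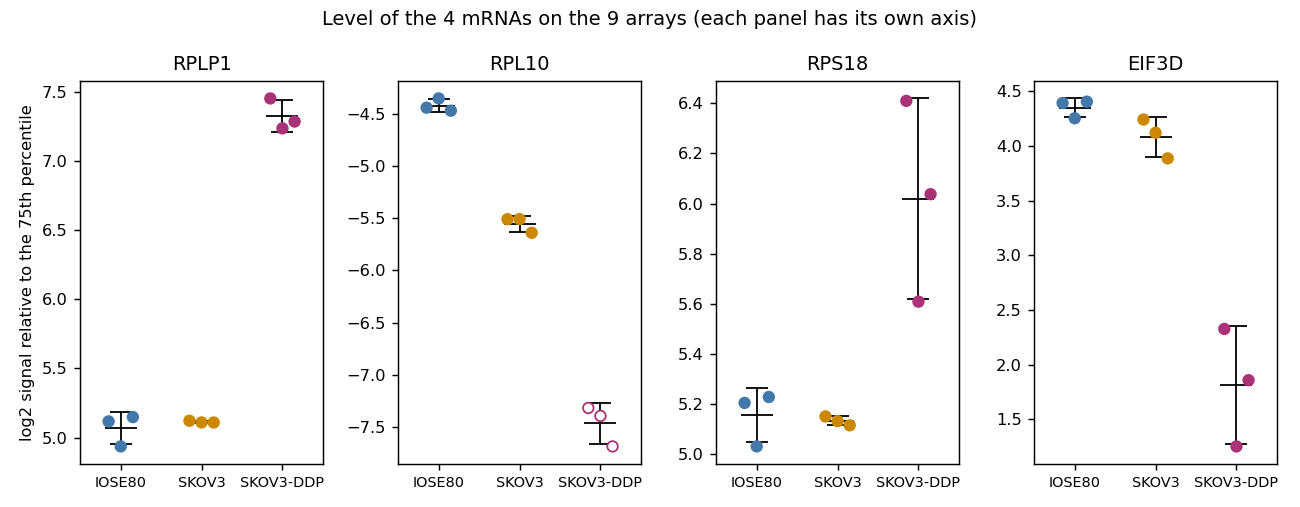
Level of each mRNA on the 9 arrays (vertical axes, log2 intensity relative to the 75th percentile of the array, a separate axis for each gene) in IOSE80, SKOV3 and SKOV3-DDP. Points are arrays, wide bars are means, whiskers are SD (n = 3), and open points were not well above background. RPLP1 and RPS18 lie higher in SKOV3-DDP on this scale but lower without scaling, and EIF3D lies lowest in SKOV3-DDP. The RPL10 points of SKOV3-DDP are measured values that were not well above background, not upper bounds. The mean bound was -5.37, and the order of the lines turned with normexp background correction and the same scaling.

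The comparison of SKOV3 with IOSE80 asks how the carcinoma line differs from the normal epithelial line. RPL10 was the only one of the 4 mRNAs that passed the test (fold change over 2 and adjusted P under 0.05, limma with Benjamini-Hochberg adjustment over all probes tested). It was lower in SKOV3 by 2.19-fold, with a log2 difference of -1.13 (SE = 0.14, 95% confidence interval -1.44 to -0.82, adjusted P = 0.00012), and every SKOV3 array lay below every IOSE80 array. RPLP1 differed by 0.05 (SE = 0.12, interval -0.23 to 0.33, adjusted P = 0.780, limma), and RPS18 by -0.02 (SE = 0.20, interval -0.47 to 0.42, adjusted P = 0.936, limma). The arrays of both lines overlapped for RPLP1 and RPS18, and neither sign was stable, that of RPLP1 turning with ACTB as the reference, without scaling and without single arrays, and that of RPS18 without single arrays alone. EIF3D differed by -0.27 (SE = 0.25, interval -0.84 to 0.30, adjusted P = 0.407, limma), although the arrays of the 2 lines did not overlap. Of all probes tested, 33.5% were called in this comparison and 17.5% were called lower, against 1 of the 4 genes, and 65.1% did not overlap, against 2 of 4. The RPL10 difference was -1.09 within scan 1 and -1.13 in a fit of the 6 IOSE80 and SKOV3 arrays alone. With normexp background correction it was -0.76, under a fold change of 2.

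The comparison of SKOV3-DDP with IOSE80 sets the resistant line beside the normal line. With scaling to the 75th percentile, RPLP1 was higher in SKOV3-DDP by 2.26 (SE = 0.12, adjusted P = 2.1e-07, limma) and EIF3D was lower by 5.81-fold, a log2 difference of -2.54 (SE = 0.25, adjusted P = 9.8e-06, limma). RPS18 differed by 0.86 (SE = 0.20, adjusted P = 0.0023, limma), a fold change of 1.82 that did not pass the threshold. RPL10 was called lower in the fit (-3.04, adjusted P = 6.9e-08, limma), but its signals in SKOV3-DDP were not well above background. The probe entered the test only through the IOSE80 and SKOV3 arrays, so that this call is not read as a result. With RPL10 on each SKOV3-DDP array set to the dimmest signal of any detected probe there, IOSE80 came out 1.93-fold higher on the scaled axis. This used the background correction of the scanner software, and the dimmest detected signal is the lowest choice of floor, so that the bound is not strict. Normexp background correction with the same scaling gave 0.29 higher in SKOV3-DDP, beside a median of 1.76 higher for all probes tested. No direction is given for RPL10. With the RPL10 call counted, 1 of the 4 genes was called higher and 2 lower, against 52.2% of all probes called higher, 29.8% called lower and 82% called in either direction. The arrays did not overlap for 4 of the 4 genes, RPL10 with undetected signals in SKOV3-DDP, and for 91.1% of all probes.

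The comparison of SKOV3-DDP with SKOV3 was designed to address cisplatin resistance. Both comparisons go by the label of the SKOV3-DDP arrays, whose rodent-named control signals are given above, and this one shares its SKOV3-DDP arrays with the comparison above. RPLP1 was higher by 2.21 (SE = 0.12, adjusted P = 2.7e-07, limma) and EIF3D was lower by 4.83-fold, a log2 difference of -2.27 (SE = 0.25, adjusted P = 2.2e-05, limma). RPS18 differed by 0.89 (SE = 0.20, adjusted P = 0.0021, limma), again under a fold change of 2. Without the second SKOV3-DDP array, which had the lowest RPS18 and EIF3D levels of the line, RPS18 passed the threshold in both comparisons, with 1.07 against IOSE80 and 1.09 against SKOV3. RPL10 was called lower in the fit (-1.91, adjusted P = 1.2e-06, limma), but no fold is given, since the signal in SKOV3 lay below the bound for SKOV3-DDP on the scaled axis. With normexp background correction and the same scaling, RPL10 came out 1.05 above SKOV3. Normexp differences between lines were run with no other scaling. Without scaling, the background correction of the scanner software gave -4.40. On the scaled axis, the direction of RPL10 in SKOV3-DDP therefore depends on the background correction. In this comparison 80.9% of all probes were called, 52.8% higher and 28.1% lower, against 1 higher and 2 lower of the 4 genes. The arrays of 89.4% did not overlap, against 4 of 4. Both counts of genes include RPL10, which was not detected on the SKOV3-DDP arrays. Within scan 2, with 1 SKOV3 array, the differences were 2.22 for RPLP1, 0.90 for RPS18 (adjusted P = 0.0807, limma) and -2.07 for EIF3D. With the scan as a block, the differences against IOSE80 were 2.27, 0.89 (adjusted P = 0.0549, limma) and -2.24.

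The size of the SKOV3-DDP differences, and for RPLP1 and RPS18 their sign, moved with the scaling. EIF3D was lower in SKOV3-DDP under every setting run, with differences of -5.10 to -2.24 against IOSE80 and -4.76 to -2.07 against SKOV3 over the settings other than leaving out single arrays. RPLP1 was 2.26 and 2.21 higher with the percentile over detected probes and 1.44 and 1.42 with the percentile over all probes. It differed by 0.14 and 0.11 after quantile normalization, by 0.15 and 0.12 in the processed values of the authors, by 0.25 and 0.26 relative to ACTB, a cytoskeletal actin and common reference gene, and by -0.30 and -0.28 without scaling, none of which was called. RPS18 turned from 0.86 and 0.89 to 0.05 and 0.09 with the percentile over all probes, -0.88 and -0.78 after quantile normalization, and -0.82 and -0.76 in the processed values. RPS18 was called lower relative to ACTB (-1.15 and -1.06) and without scaling (-1.69 and -1.60). The direction of RPS18, and whether RPLP1 differed, therefore cannot be stated apart from the scaling. Relative to the median of all probes tested, RPLP1 was 1.02 higher, RPS18 -0.38 and EIF3D -3.78 in SKOV3-DDP against IOSE80, which places RPLP1 at the 66.6th, RPS18 at the 45.9th and EIF3D at the 17.9th percentile of the differences.

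**Figure D3:**
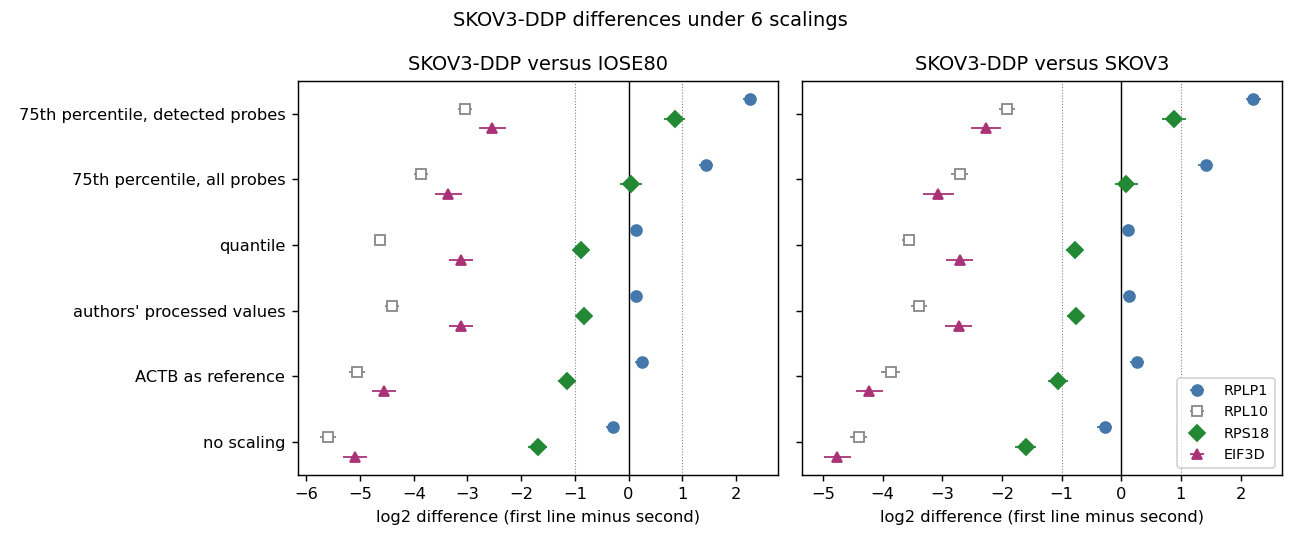
Log2 difference of SKOV3-DDP from IOSE80 (left) and from SKOV3 (right) on the horizontal axes for each of the 4 mRNAs, under 6 scalings (vertical axis). Points are limma estimates, bars are SE, dotted lines mark a fold change of 2, and the open squares of RPL10 rest on SKOV3-DDP signals that were not well above background. EIF3D stays between -5.10 and -2.27 on both panels, RPLP1 runs from 2.26 to -0.30, and RPS18 runs from 0.89 to -1.69.

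Differences between mRNAs on the same array do not depend on any scaling by a constant, and they show whether the probe signals changed unequally. RPLP1 minus RPS18 was -0.09 ± 0.0076 in IOSE80 and -0.02 ± 0.012 in SKOV3, with 1.31 ± 0.30 in SKOV3-DDP (n = 3 each). The RPLP1 signal therefore gained on the RPS18 signal in SKOV3-DDP by 2.63-fold relative to IOSE80 and 2.51-fold relative to SKOV3. Whether the mRNAs shifted by as much was not tested, since the linearity of such bright signals was not. RPS18 minus EIF3D was 0.80 ± 0.02, 1.05 ± 0.16 and 4.21 ± 0.14, a shift of 3.40 (10.6-fold) and 3.16 (8.92-fold) in SKOV3-DDP. RPLP1 minus EIF3D was 0.72 ± 0.03, 1.03 ± 0.18 and 5.52 ± 0.44, a shift of 4.80 (27.8-fold) and 4.49 (22.4-fold). The SKOV3-DDP arrays lay above the other 6 arrays for each of these 3 pairs. Between SKOV3 and IOSE80 the same pairs shifted by 0.07, 0.25 and 0.31, also without overlap.

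Against RPL10, the signals of the other 3 mRNAs gained in SKOV3 relative to IOSE80, RPLP1 by 1.18, RPS18 by 1.11 and EIF3D by 0.86 (log2), without overlap of the arrays. In SKOV3-DDP these differences are bounds, which hold only with RPL10 at the dimmest detected signal and with the background correction of the scanner software. With it, RPLP1 gained on RPL10 by at least 9.26-fold relative to IOSE80 and at least 4.09-fold relative to SKOV3, and RPS18 by at least 3.52-fold and at least 1.63-fold. With normexp background correction these shifts were smaller than the bounds, 1.90 and 1.08 (log2) for RPLP1 and 0.50 and -0.25 for RPS18. For EIF3D and RPL10, both dimmer on the SKOV3-DDP arrays, no bound can be given. Their measured differences overlapped (0.51, exact P = 0.30, and -0.36, exact P = 0.50). Over the 6 pairs and 3 comparisons, 18 exact two-sided permutation tests were run. The smallest P that 3 arrays against 3 can give is 0.10, so that none could pass 0.05. Of the 18 tests, 16 reached 0.10 without overlap (Benjamini-Hochberg adjusted P = 0.112). The 16 include RPLP1 and RPS18 minus RPL10 in SKOV3-DDP, where RPL10 was not detected. The pairs share genes and are not independent. The share without overlap over pairs of other probes was not computed. Among single probes it was 65.1% (SKOV3 versus IOSE80), 91.1% (SKOV3-DDP versus IOSE80) and 89.4% (SKOV3-DDP versus SKOV3), so that the count is not read as particular to these genes. In the processed values of the authors, where the arrays share 1 distribution, the shifts of RPLP1 minus EIF3D were 3.26 and 2.85, and those of RPLP1 minus RPS18 were 0.97 and 0.89.

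**Figure D4:**
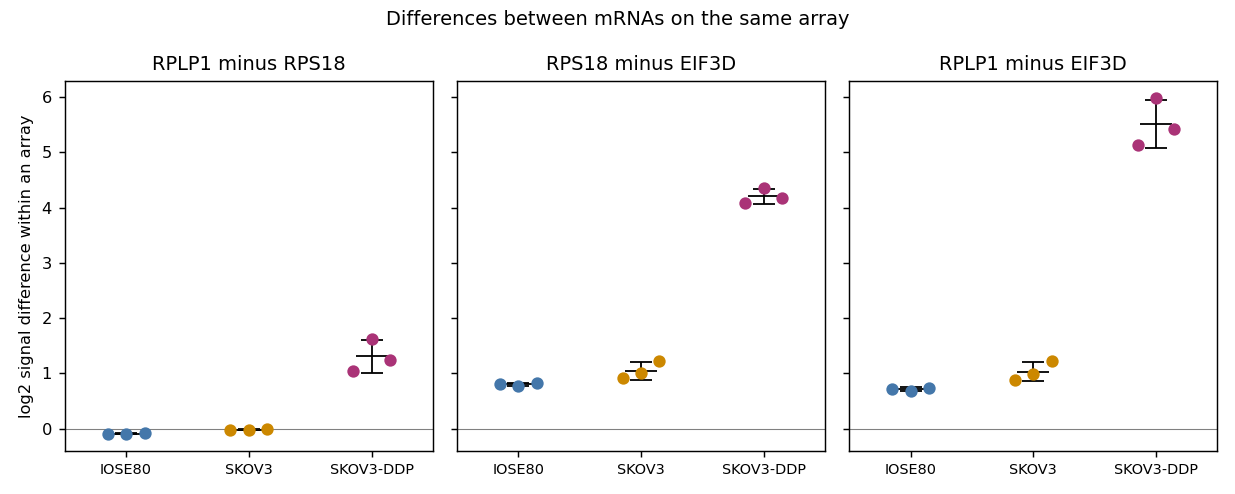
Difference in log2 intensity between 2 mRNAs on the same array (vertical axis, shared) in IOSE80, SKOV3 and SKOV3-DDP, for RPLP1 minus RPS18, RPS18 minus EIF3D and RPLP1 minus EIF3D. Points are arrays, wide bars are means and whiskers are SD (n = 3). The SKOV3-DDP arrays lie at 1.31 ± 0.30, 4.21 ± 0.14 and 5.52 ± 0.44, above all IOSE80 and SKOV3 arrays in each panel.

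The 16 other probes with a RefSeq accession show which patterns were most like those of the 4 genes, measured by the root mean square difference of the centred log2 levels over the 9 arrays. The nearest to RPLP1 were ACTB (0.12) and GAPDH (0.18), a glycolytic enzyme and reference gene. ACTB differed by 2.01 and GAPDH by 2.12 between SKOV3-DDP and IOSE80 on the scaled axis, beside 2.26 for RPLP1. The nearest to RPS18 were RACK1 (0.52), a scaffold protein of the small subunit, and ACTB (0.54), both farther than the neighbours of RPLP1. RACK1 differed by -0.26 (adjusted P = 0.177, limma) and -0.17 (adjusted P = 0.355, limma) in SKOV3-DDP, with overlapping arrays. The nearest to EIF3D were MTX1 (0.19), a protein of the mitochondrial outer membrane, and COX4I1 (0.23), a subunit of cytochrome c oxidase, with -2.25 and -2.79 against IOSE80 beside -2.54 for EIF3D. No likeness is given for RPL10, which was not detected on the 3 SKOV3-DDP arrays. Of the 15 other named probes tested, 5 were called higher and 6 lower against IOSE80, with a median difference of -0.77 beside 1.24 for all probes tested.

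Apart from RACK1, given above and on neither list that follows, the rest of the translation machinery could not be described by name. Of 89 cytosolic ribosomal protein genes, 3 had a named probe, and of 66 translation factor genes 1 had, which are the 4 genes above. In total RNA of cell lines, less mRNA of a gene per cell and fewer cells that express it cannot be told apart. With 3 arrays per line, the number of arrays limits the precision of every value.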

How the data were processed

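RNA of IOSE80, SKOV3 and SKOV3-DDP was hybridized to 9 one-color arrays. The authors deposited scanner output (Feature Extraction), which gives every spot an intensity after background correction and quality flags, and a table of processed values on the log2 scale. The file headers name version 11.0.1.1 and the submitters' processing notes 10.7.3.1. The study names a low-input QuickAmp kit for labeling and the sample records random priming. In the deposited log2 table every column had its median at 3.70 and its 75th percentile at 6.84, and each had its highest rank correlation with its own array. The rank correlation rounded to 1.00 for the IOSE80 and SKOV3 columns but 0.962 to 0.968 for the 3 SKOV3-DDP columns, which therefore depart from the order of their scanner values. Its normalization is not given in the sources used here.

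Log2 intensities were averaged over the spots of a probe, without non-uniform spots and, where a probe has several, population outliers (21 of 360 spots of the 4 probes). Each array was centred on its 75th percentile over the 15226 probes detected on all 9 arrays (well above background by the scanner flag), because fewer than 50% were detected. The 28591 probes detected on 3 or more arrays entered limma 3.58.1 (R 4.3.3), with the line as the factor and 9 arrays in 1 model. All 4 genes were tested, RPL10 through 6 arrays. A probe was called when its fold change exceeded 2 and its P, adjusted by Benjamini-Hochberg, was under 0.05. The limma procedure was also run on data simulated with the means and spread of these arrays. Pairs of genes on 1 array were compared with exact permutation tests in scipy 1.17.1, and tables and plots used Python 3.11.15, pandas 2.3.3, numpy 2.4.6 and matplotlib 3.10.9.

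The members and lists were chosen with earlier results of these data known. Genes named besides the 4 are ACTB, GAPDH and, for each gene except RPL10, the 2 named probes with the smallest root mean square difference. Alternatives were the percentile over all probes, quantile normalization, ACTB as the reference, normexp background correction with an offset of 50 (on the median spot signal), the processed table, the median over spots, all spots kept, the methods' t-test, no filter, a filter for detection on 9 of 9 arrays, calls without the fold change, only the 6 arrays compared, the replicate number or the scan as a block, each scan alone, and each array left out. No scaling between arrays was added after seeing the data.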

Additional observations from a re-analysis of the deposited data

Results flagged for a closer look

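The effects relative to IOSE80 were called different between SKOV3-DDP and SKOV3 for 3 of the 4 genes. This share is near the 80.9% of all probes called in the same comparison. RPL10 is counted among the 3, although it was not detected on the SKOV3-DDP arrays, so that no difference is established for it. Because both effects use the same IOSE80 arrays, the test of this difference is the comparison of SKOV3-DDP with SKOV3 in the limma fit. It was 2.21 for RPLP1, -1.91 for RPL10 and -2.27 for EIF3D (log2). The RPLP1 difference was not called with quantile normalization, ACTB as the reference, the processed values of the authors or no scaling, and the RPL10 difference rests on SKOV3-DDP signals that were not well above background and turned to 1.05 with normexp background correction.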

How the results depend on the processing

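With quantile normalization, ACTB as the reference and the processed values of the authors, the RPLP1 difference of SKOV3-DDP from IOSE80 and SKOV3 was 0.14 and 0.11, 0.25 and 0.26, and 0.15 and 0.12, no longer called, and RPS18 reversed to -0.88 and -0.78, -1.15 and -1.06, and -0.82 and -0.76. Without scaling, which was chosen after seeing the data, RPLP1 reversed to -0.30 and -0.28 and RPS18 to -1.69 and -1.60. In SKOV3 versus IOSE80, RPLP1 was -0.017 relative to ACTB and -0.021 without scaling. Normexp background correction gave RPL10 differences of -0.76 (SKOV3 versus IOSE80), 0.29 and 1.05 (SKOV3-DDP versus IOSE80 and SKOV3), and within-array differences of -2.90 for EIF3D minus RPL10 against IOSE80 and -0.25 for RPS18 minus RPL10 against SKOV3. EIF3D minus RPL10 against SKOV3 was 0.66 in the processed values. The RPL10 values in SKOV3-DDP were not well above background. Without the fold change in the call, RPS18 was called at 0.86 and 0.89, and 14918 probes were called in SKOV3 versus IOSE80. Calls over all probes in SKOV3-DDP versus IOSE80 and versus SKOV3 were 52160 and 51783 with no filter, and were 3804, 12602 and 12490 in the 3 comparisons with only the probes detected on all arrays, a filter that leaves RPL10 untested. The split of calls against IOSE80 was 14928 higher and 8526 lower as reported, 11867 and 10445 with quantile normalization, and 5165 and 13408 relative to ACTB. The methods' t-test called 9356, 23021 and 22557 probes unadjusted and 9022, 22924 and 22423 after Benjamini-Hochberg. Leaving out each array gave -0.019 to 0.087 for RPLP1 (reversed without IOSE80 replicate 2) and -0.084 to 0.015 for RPS18 (reversed without IOSE80 replicate 1 or 3) in SKOV3 versus IOSE80, and 0.67 to 1.07 and 0.69 to 1.09 for RPS18 in SKOV3-DDP versus IOSE80 and SKOV3. With the replicate number as a block, 9584, 23473 and 23146 probes were called, and no call of the 4 genes changed. Deviations of same-numbered arrays correlated at -0.061 to 0.171, 1 of 9 pairs was over 0.1, and 4 of 9 arrays matched their own number best, so that the numbers were not taken to pair the arrays. EIF3D kept its direction and its side of the threshold in every comparison and setting run. The cause of these changes was not tested.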
